A study of Mus musculus with 11 samples.

Results

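The 10 genes described here carry the insulin and IGF1 signal from the cell surface to AKT: the receptors Insr and Igf1r, the docking proteins Irs1 and Irs2, the PI3-kinase subunits Pik3cb and Pik3r1, the kinases Pdpk1, Akt1 and Akt2, and the AKT substrate Gsk3b. They were found by symbol, through the RefSeq accession of each row, and all 10 had a row among the 21878 of the table. All 10 also passed the filter on low values, a mean of at least 1 FPKM (fragments scaled to transcript length and library total) over the 11 libraries, which left 10891 rows for testing. The series compared 5 heart libraries of wild-type females that met anti-Müllerian hormone (AMH) before birth, a model of polycystic ovary syndrome (PCOS), with 6 heart libraries of wild-type females given vehicle (phosphate-buffered saline) prenatally. The labels give no age, litter, batch or day, and do not say whether libraries of a group came from separate animals, so p-values measure only the spread between these libraries, which may be technical.

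Insulin and IGF1 bind receptor tyrosine kinases, which phosphorylate IRS proteins. Phosphorylated IRS proteins recruit PI3-kinase through its p85 regulatory subunit, and the lipid that PI3-kinase makes brings PDK1 and AKT to the membrane, where AKT is activated. In heart muscle this pathway is known for glucose uptake, glycogen synthesis and physiological growth, and AKT keeps FoxO transcription factors out of the nucleus. Irs2 is itself known as a FoxO target, so its transcript is induced by fasting and repressed by insulin in liver.

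Irs2 and Irs1 are shown by the 250 bases before their RefSeq start site (GRCm38.p6, minus strand for both), because their ratio varied most between libraries of the 4 paralog ratios computed. Capitals mark CACGTG, an E-box, and TGTTTTG, the core of the insulin response element that FoxO proteins bind.
Irs2, chr8:11008930-11009179: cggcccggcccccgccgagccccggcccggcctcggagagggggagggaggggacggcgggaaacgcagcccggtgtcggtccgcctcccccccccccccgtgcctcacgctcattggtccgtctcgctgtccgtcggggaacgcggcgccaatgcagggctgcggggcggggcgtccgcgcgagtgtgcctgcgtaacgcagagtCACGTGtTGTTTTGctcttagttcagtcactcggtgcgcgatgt
Irs1, chr1:82291440-82291689: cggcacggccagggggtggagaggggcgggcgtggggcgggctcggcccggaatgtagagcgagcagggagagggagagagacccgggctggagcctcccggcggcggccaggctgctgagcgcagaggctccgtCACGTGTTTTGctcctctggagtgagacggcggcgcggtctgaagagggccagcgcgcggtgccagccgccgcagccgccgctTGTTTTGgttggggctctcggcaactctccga
In Irs2 the E-box begins 44 bases and the TGTTTTG 37 bases before the start site, separated by a single t. In Irs1 they begin 115 and 111 bases before it and share the letters TG, and a further TGTTTTG begins 32 bases before the start site. Searched on both strands, CACGTG was in 6.02% and TGTTTTG in 5.56% of 32851 such windows, and 97 windows (0.295%) held both. Of the 15 windows of the 9 members listed there, the windows of Irs1 and Irs2 were the 2 that held both. The forkhead motif TGTTTAC was in 3.17% of all windows and, among these members, in a window of Akt1; the cyclic AMP response element TGACGTCA was in 1.55% and in none of the 15. These matches are descriptions of letters and were chosen after the expression values were known.

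Whole reads recovered from the steps of the FPKM values summed to 11866291 to 14346620 per library, and each of the 10 transcripts rested on 38 to 3726 reads in a library. A few control libraries stood apart. Control replicate 6 had a median correlation of 0.962 with the other libraries, across tested rows, against 0.987 to 0.993 for the other 10. Its 8 hepatocyte markers summed to 1790 FPKM, against at most 13.1 FPKM in any other library. Control replicates 2 and 5 are labelled wild type like all others, but held 6.04 and 8.29 FPKM of Apoe (133 and 156 reads), against 98.8 to 486 FPKM in the other 9 libraries; Apoe, the apolipoprotein E gene, lies on chromosome 7 from 19696244 to 19701310. Results are therefore also given without replicate 6, and without replicates 2 and 5. Cardiomyocyte markers were high in every library, 6 of them summing to 30800 to 35400 FPKM in controls and 34300 to 36900 FPKM in PCOS, which matches the labelled tissue. These are whole-tissue RNA samples, so fewer cells of a type and less RNA per cell cannot be told apart.

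Akt1 was the most abundant of the 10 transcripts and Igf1r the least. Mean levels over the 11 libraries were 80.6 FPKM for Akt1, 30.4 for Akt2, 18.9 for Insr, 13.9 for Pik3r1, 5.66 for Gsk3b and 3.85 for Pik3cb, and in all 11 libraries each of these was above the next. Below them the order was not fixed. Pik3cb exceeded Irs1 (3.54 FPKM) in 7 of 11 libraries, Irs1 exceeded Pdpk1 (3.16 FPKM) in 8, and Pdpk1 exceeded Irs2 in all but control replicates 2 and 5. Igf1r had the lowest mean, 2.35 FPKM, yet lay above Irs2 in 8 of 11 libraries. FPKM is scaled to the length of the gene model, here 3000 bases for Akt1 to 12700 bases for Igf1r as implied by the reads, so these comparisons depend on those models.

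**Figure D1:**
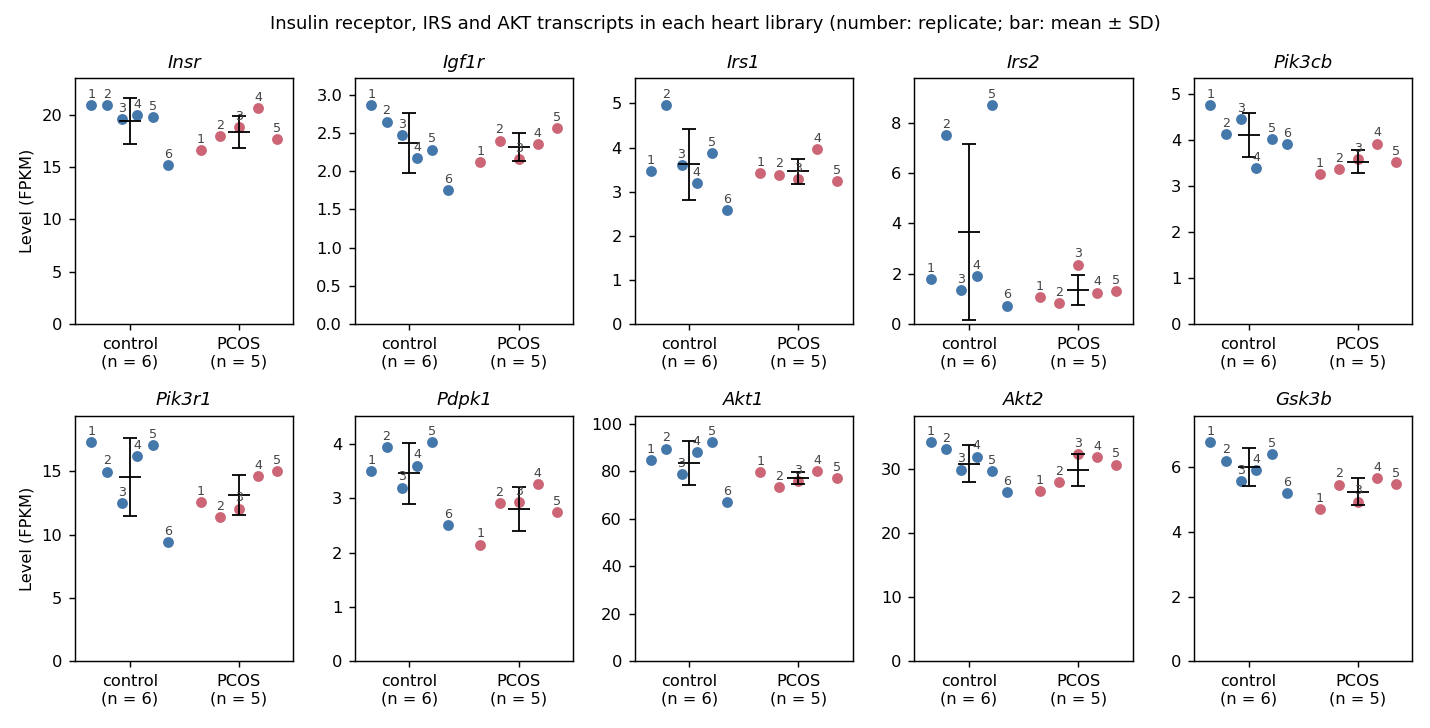
Level of the 10 transcripts in FPKM (vertical axis, from 0) in 6 control (blue) and 5 PCOS (red) heart libraries, each point marked with its replicate number and the bar giving mean and SD. Groups overlapped for all 10, control replicate 6 was lowest for 7 of them, and Irs2 stood out for control replicates 2 and 5 at 7.50 and 8.71 FPKM.

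None of the 10 transcripts differed between PCOS and control hearts at an adjusted p under 0.05 (limma over 10891 rows). In the same fit 0.138% of rows were called, all of them higher in PCOS, and 0.0% were called lower. All 10 had a lower mean in PCOS, where 49.4% of tested rows did, with a median log2 difference of -0.11 against 0.002 over all tested rows. At an unadjusted p under 0.05, 3 of the 10 (Pdpk1, Pik3cb and Gsk3b) were lower, against 3.17% of tested rows. For 0 of the 10 did every PCOS library lie below every control; 0.248% of tested rows showed that pattern. The 10 are long transcripts: the 6148 tested rows at least as long as the shortest of them had a median of -0.03, 61.5% of them below 0 and 4.08% lower at an unadjusted p under 0.05. The part of length in the members' differences was not tested.

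The count of 3 at an unadjusted p under 0.05 changed with the libraries and the fit used. It was 0 without control replicate 1, 2 or 5 or without PCOS replicate 1 or 3, each left out alone, and 1 without control replicate 4 or PCOS replicate 2 or 5. It was 5 with sample weights. With the replicate block it was also 5, where 12.2% of rows at least as long as the shortest member were lower at that p. Fewer libraries also raise p, so these counts do not show which library a difference rests on. Over all alternatives the log2 difference lay between -0.30 and -0.14 for Pdpk1, -0.22 and -0.14 for Pik3cb, and -0.20 and -0.13 for Gsk3b. Without control replicate 6, 7 of the 10 were lower at an unadjusted p under 0.05 (Insr, Irs2, Pik3cb, Pik3r1, Pdpk1, Akt1 and Gsk3b), against 9.75% of all rows and 14.0% of the rows of that length. All 10 were then below 0, where 50.3% of all rows and 65.5% of the rows of that length were. The median of the 10 was -0.17, against -0.05 for the rows of that length. None of the 10 was called (lowest adjusted p = 0.134, limma), while 0.294% of rows were. Without control replicates 2 and 5, 8 of the 10 were below 0, where 50.0% of all rows and 58.0% of the rows of that length were. Of the 10, 0 reached an unadjusted p under 0.05, where 1.1% of rows were lower at that p. The median of the 10 was then -0.04, with 0.0918% of rows called. Control replicate 6 was the lowest library for 7 of the 10 transcripts, where it was lowest for 20.7% of all tested rows; PCOS replicate 1 was lowest for the other 3, where it was lowest for 13.4%. The highest library was control replicate 1 for 5 of the 10, where it was highest for 18.2% of all tested rows. It was control replicate 2 for 2 of them and control replicate 5 for 3, against 8.72% and 9.73% of all tested rows.

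**Figure D2:**
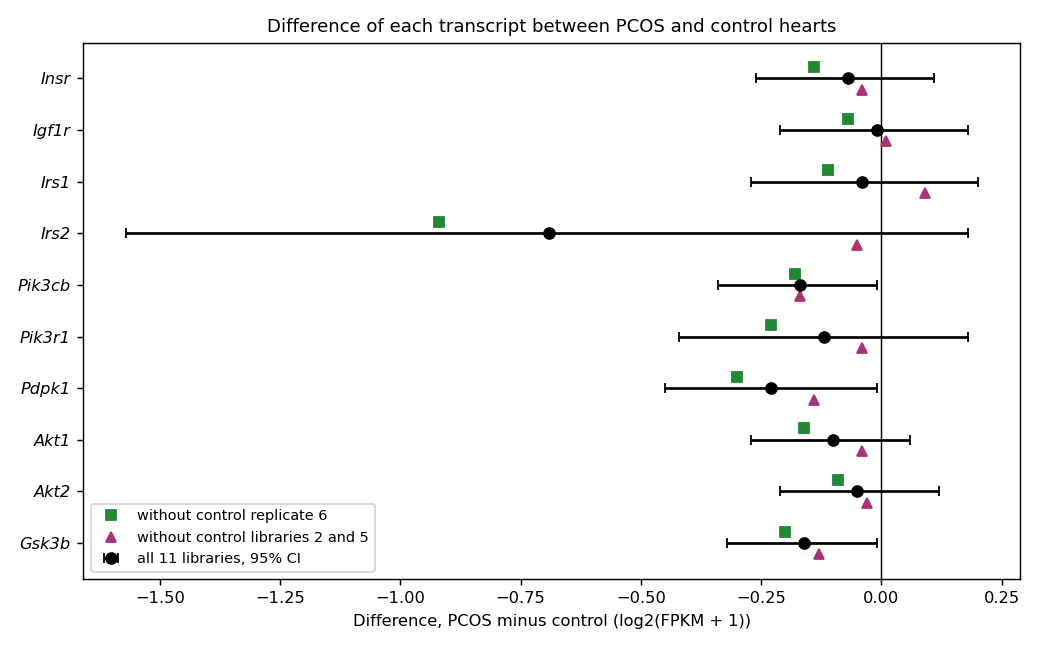
Difference of each transcript, control subtracted from PCOS, in log2(FPKM + 1) units (horizontal axis), with its 95% confidence interval from limma over all 11 libraries, and the same difference without control replicate 6 (green squares) or without control replicates 2 and 5 (purple triangles). Irs2 moved from -0.69 to -0.05 without control replicates 2 and 5, and Pik3cb stayed at -0.17.

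Neither receptor passed the test, and the difference of Insr depended on control replicate 6. Insr, the insulin receptor, ran from 15.2 to 21.0 FPKM in controls with a median of 19.9, and was at 16.6, 17.9, 18.8, 20.6 and 17.6 FPKM in PCOS replicates 1 to 5. All 5 PCOS values lay within the control range, and control replicate 6 alone set its lower end. The groups differed by -0.07 log2 (95% confidence interval -0.26 to 0.11, adjusted p = 0.837). Without control replicate 6 it was -0.14 (unadjusted p = 0.0401, adjusted p = 0.235), and 4 of the 5 PCOS values then lay below every remaining control. Without control replicates 2 and 5 it was -0.04. Igf1r, the receptor for IGF1, had a control mean of 2.37 ± 0.392 FPKM (SD, n = 6) and a PCOS mean of 2.32 ± 0.184 FPKM (SD, n = 5), a log2 difference of -0.01 (interval -0.21 to 0.18, adjusted p = 0.975) whose sign turned when control replicate 1 or 2 or PCOS replicate 1 or 3 was left out. Insr outnumbered Igf1r per length by 7.30 to 9.19 times in controls and by 6.87 to 8.77 times in PCOS. The log2 ratio differed by -0.06 (exact two-sided permutation p = 0.472, adjusted over 4 ratios p = 0.472), and by -0.01 without PCOS replicate 5.

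Irs2 was the most variable of the 10, and it varied more among the controls (SD 3.49 FPKM) than in PCOS (SD 0.590 FPKM). It was at 1.79, 7.50, 1.35, 1.89, 8.71 and 0.737 FPKM in control replicates 1 to 6, and at 1.07, 0.822, 2.36, 1.25 and 1.31 FPKM in PCOS replicates 1 to 5. Control replicates 2 and 5 were thus the only libraries above 2.36 FPKM, and the other 4 controls overlapped the PCOS libraries. The excess was larger than counting error: replicates 2 and 5 had 418 reads (95% exact Poisson interval 379 to 460) and 415 reads (376 to 457), while the next highest library, PCOS replicate 3, had 136 reads (114 to 161). The intervals cover counting error only. Control replicate 6 had the fewest, 38 reads (26.9 to 52.2).

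Irs2 had a control mean of 3.66 ± 3.49 FPKM (SD, n = 6) and a PCOS mean of 1.36 ± 0.590 FPKM (SD, n = 5), so the control SD was nearly as large as its mean. Its log2 difference was -0.69 (SE 0.40, limma adjusted p = 0.752), and an exact two-sided permutation test over libraries gave p = 0.221. Adding 0.1 instead of 1 to the FPKM gave -0.91 (exact permutation p = 0.221). Limma with sample weights gave -1.09 (unadjusted p = 0.0087, adjusted p = 0.164). Among controls those weights were highest for replicate 2 (1.79), a library high in Irs2, and lowest for replicate 6 (0.237). Without control replicate 2 the difference was -0.46 and without control replicate 5 it was -0.42. Without both it was -0.05 (exact permutation p = 0.81), and without control replicate 6 it was -0.92 (exact permutation p = 0.0794). No setting brought the permutation p under 0.05. With like-numbered libraries paired it could not have done so, as the lowest possible sign-flip p was 0.0625.

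Irs1, the other IRS protein of the heart, was more even. It ran from 2.57 to 4.97 FPKM in controls with a median of 3.54, and was at 3.42, 3.39, 3.29, 3.96 and 3.24 FPKM in PCOS replicates 1 to 5, all within the control range. The log2 difference was -0.04 (interval -0.27 to 0.20, adjusted p = 0.945), and it was 0.04 without control replicate 2, the library with the highest Irs1, and 0.09 without control replicates 2 and 5. Irs1 exceeded Irs2 in 9 libraries, and Irs2 exceeded Irs1 in control replicates 2 and 5, by 1.51 and 2.24 times. In the other controls the ratio of Irs2 to Irs1 was 0.517, 0.375, 0.592 and 0.286, and in PCOS it was 0.313, 0.243, 0.718, 0.315 and 0.404. The log2 ratio differed by -0.91 (exact permutation p = 0.169, adjusted over 4 ratios p = 0.338). It differed by -0.57 without control replicate 5 and by -0.20 without control replicates 2 and 5.

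**Figure D3:**
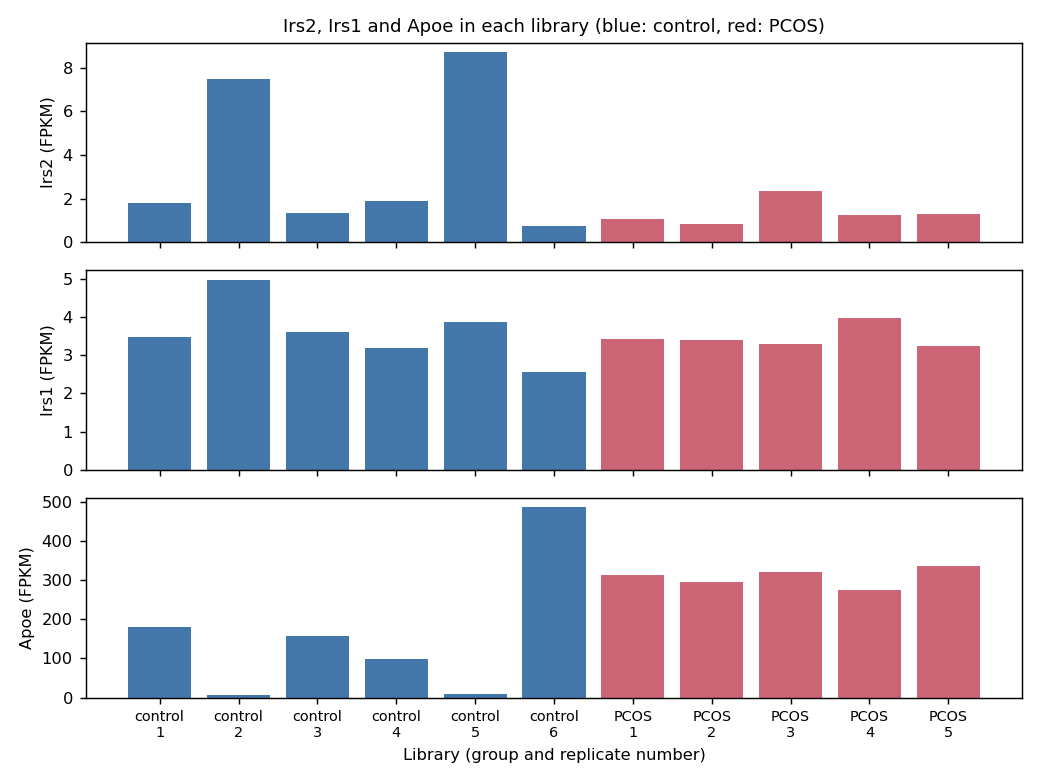
FPKM of Irs2, Irs1 and Apoe (vertical axes, from 0) in each control (blue) and PCOS (red) library. The control replicates with the most Irs2, 2 and 5, held the least Apoe, at 6.04 and 8.29 FPKM; Irs1 stayed between 2.57 and 4.97 FPKM throughout.

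The 8 named transcripts most like Irs2 were also highest in control replicates 2 and 5, and without those libraries their likeness ranged from r = 0.04 to r = 0.78. By Pearson correlation of log2(FPKM + 1) over the 11 libraries, the 8 likest named genes were Pnmal2 (r = 0.95), Sae1 (0.93), Pde4b (0.92), Slc38a1 (0.91), Trappc6a (0.91), Rnf149 (0.91), Eloa (0.90) and Pola1 (0.90). The libraries fall into 2 clusters for Irs2, so these values rank genes and are no more than that. Over the 9 libraries without control replicates 2 and 5, r was 0.78 for both Pde4b, a phosphodiesterase of cyclic AMP, and Rnf149, 0.61 for Slc38a1, a glutamine transporter, 0.55 for Eloa, 0.47 for Pnmal2, 0.25 for Pola1, 0.23 for Sae1 and 0.04 for Trappc6a. Of the 8, Pnmal2 (from 16944682), Sae1 (from 16320236) and Trappc6a (from 19508665) lie on chromosome 7 near Apoe, where 7.53% of tested rows with a position are on that chromosome; Irs2 itself is on chromosome 8, from 10984681 to 11008929. Control replicates 2 and 5 held 42.7 and 47.8 FPKM of Trappc6a, which was between 18.3 and 26.0 FPKM in the other 9 libraries. Sae1 was at 23.3 and 24.2 FPKM in those 2 and between 11.8 and 14.8 FPKM in the others. None of the 8 differed between PCOS and control (adjusted p of 0.738 to 0.826, limma).

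Both PI3-kinase subunits had lower means in PCOS, without passing the test. Pik3cb, the catalytic subunit p110beta, ran from 3.38 to 4.77 FPKM in controls with a median of 4.07, and was at 3.26, 3.36, 3.59, 3.92 and 3.52 FPKM in PCOS replicates 1 to 5. PCOS replicates 1 and 2 were below all controls and the other 3 were within their range. The log2 difference was -0.17 (interval -0.34 to -0.01, unadjusted p = 0.0427, adjusted p = 0.738), and it lay between -0.22 and -0.14 in 20 alternatives. Pik3r1, which encodes the p85alpha regulatory subunit, ran from 9.39 to 17.3 FPKM in controls with a median of 15.6, and was at 12.6, 11.4, 12.1, 14.6 and 15.0 FPKM in PCOS. All 5 PCOS values were below the control median and within the control range. Its log2 difference was -0.12 (interval -0.42 to 0.18, adjusted p = 0.836), -0.23 without control replicate 6 and -0.04 without control replicates 2 and 5. Other PI3-kinase genes did not pass the test in either direction (0 of 4 tested); Pik3c2a was at 2.64 ± 0.535 and 2.21 ± 0.146 FPKM, and Pik3cd, a leukocyte subunit, at 1.36 ± 0.390 and 1.54 ± 0.388 FPKM. Macrophage markers, 5 of 5 higher in PCOS with 1 called, summed to 108 to 213 FPKM in controls and 243 to 346 FPKM in PCOS; their part in the level of Pik3cd was not tested.

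Pdpk1 had the largest difference after Irs2. It encodes PDK1, the kinase that phosphorylates the activation loop of AKT. Controls ran from 2.50 FPKM in replicate 6 to 4.03 FPKM in replicate 5 with a median of 3.55, and PCOS replicates 1 to 5 were at 2.15, 2.91, 2.93, 3.25 and 2.74 FPKM. All 5 PCOS values were below the control median, and PCOS replicate 1 was below every control. PCOS differed from control by -0.23 log2 (SE 0.10, unadjusted p = 0.0456, adjusted p = 0.738). It was -0.30 without control replicate 6 (adjusted p = 0.134), -0.14 without control replicates 2 and 5 (adjusted p = 1.0) and -0.16 without PCOS replicate 1.

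Neither AKT kinase passed the test between groups. Akt1 ran from 67.1 to 92.3 FPKM in controls with a median of 86.3, and was at 79.5, 73.4, 75.9, 80.0 and 77.2 FPKM in PCOS. The PCOS libraries were tightly grouped (SD 2.72 FPKM against 9.22 FPKM in controls), below the control median and within the control range. The log2 difference was -0.10 (interval -0.27 to 0.06, adjusted p = 0.785), and it was -0.16 without control replicate 6 (unadjusted p = 0.0079, adjusted p = 0.14) and -0.04 without control replicates 2 and 5. Akt2, the isoform most closely tied to insulin-stimulated glucose uptake, had a control mean of 30.8 ± 2.83 FPKM (SD, n = 6) and a PCOS mean of 29.8 ± 2.50 FPKM (SD, n = 5), which differed by -0.05 log2 (interval -0.21 to 0.12, adjusted p = 0.889), by -0.09 without control replicate 6 and by -0.03 without control replicates 2 and 5. The ratio of Akt2 to Akt1 was 0.372 ± 0.0290 in controls and 0.387 ± 0.0338 in PCOS (log2 difference 0.06, exact permutation p = 0.463, adjusted over 4 ratios p = 0.472), and the difference was 0.02 without control replicate 5.

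Gsk3b, the glycogen synthase kinase that AKT inhibits, ran from 5.19 to 6.77 FPKM in controls with a median of 6.06. In PCOS replicates 1 to 5 it was at 4.70, 5.46, 4.94, 5.67 and 5.47 FPKM, of which replicates 1 and 3 were below every control. The log2 difference was -0.16 (SE 0.07, unadjusted p = 0.0419, adjusted p = 0.738). It was -0.20 without control replicate 6 (limma adjusted p = 0.164) and -0.13 without control replicates 2 and 5 (limma unadjusted p = 0.151). Its paralog Gsk3a was more abundant, at 33.9 to 41.4 FPKM. The ratio of Gsk3b to Gsk3a was 0.166, 0.153, 0.142, 0.143, 0.160 and 0.153 in control replicates 1 to 6 and 0.124, 0.132, 0.138, 0.143 and 0.150 in PCOS replicates 1 to 5. The PCOS ratios were lower on average with overlap, by -0.15 log2 (exact two-sided permutation p = 0.0303), and this did not pass after adjustment over the 4 ratios (p = 0.121). The log2 ratio differed by -0.15 without control replicate 6 and by -0.12 without PCOS replicate 1. Without control replicates 2 and 5 it differed by -0.13 (exact permutation p adjusted over 4 ratios = 0.444).

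**Figure D4:**
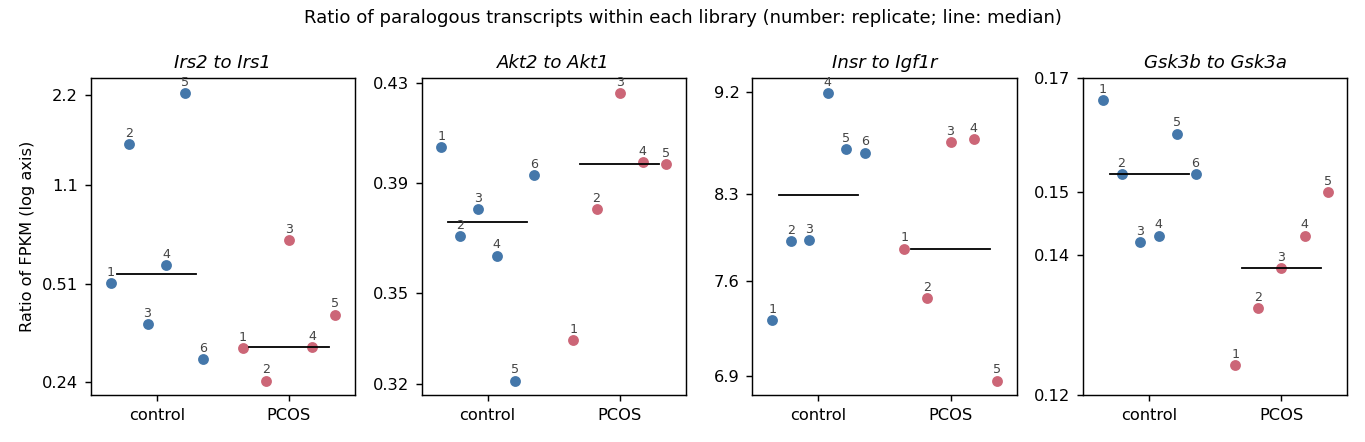
Ratio of FPKM between paralogs within each control (blue) and PCOS (red) library, on log axes, with replicate numbers and group medians (lines). The groups overlap in all 4 ratios; the ratio of Irs2 to Irs1 exceeds 1 in control replicates 2 and 5 alone, at 1.51 and 2.24.

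The wider pathway gave the same picture of small differences that did not pass. Of 78 genes in 7 lists, 71 had a row and 64 were tested. Of the 64, 0 were called in either direction, where 0.138% of all tested rows were called. The mean in PCOS was higher for 21 and lower for 43, where 49.4% of all tested rows were lower. The median log2 difference of the 64 was -0.06. At an unadjusted p under 0.05 there was 1, Cat, which encodes catalase. It was lower, as were 3.17% of all tested rows at that p. Among 8 ligands and binding proteins 5 were higher and 3 lower, with a median of 0.01 that was 0.12 without control replicate 6 and -0.03, with 5 lower, without control replicates 2 and 5. Igf1, a ligand of Igf1r, was at 3.42 FPKM in control replicate 6 and at 0.917 to 1.75 FPKM in the other libraries, and Igfbp2, an IGF-binding protein, was at 20.4 FPKM in that library and at most 2.73 FPKM elsewhere; its log2 difference of -0.81 was -0.18 without that library. Both are abundant liver products, and that library held the hepatocyte markers given above; their part in these values was not tested. Igfbp7 had the smallest p among the higher ones (136 ± 27.7 and 142 ± 11.9 FPKM, adjusted p = 0.875), with a log2 difference of 0.08 that was 0.17 without control replicate 6.

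Adaptors and brakes of the receptors were spread evenly around 0. Of 7 tested adaptors, docking proteins and other receptors 3 were higher and 4 lower; Igf2r, which clears IGF2, was at 22.1 ± 3.75 and 19.2 ± 1.63 FPKM (log2 difference -0.18, and -0.08 without control replicates 2 and 5), and the adaptor Sh2b1 at 16.4 ± 1.37 and 17.2 ± 0.632 FPKM. Grb14, an adaptor that inhibits the insulin receptor, was the most abundant of them at 83.5 to 99.7 FPKM. Irs4 had 0 reads in every library and Irs3 had 1 to 10 reads, so Irs1 and Irs2 carried the IRS transcripts of these hearts. Of 10 tested brakes 5 were higher and 5 lower. Inpp5d, a lipid phosphatase of blood cells, was at 1.55 ± 0.205 and 1.78 ± 0.174 FPKM (log2 difference 0.13, adjusted p = 0.755).

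Downstream lists had more negative than positive differences, where 49.4% of all tested rows were below 0. Among tested rows at least as long as the shortest member 61.5% were below 0. The part of length in these lists was not tested. Of 9 mTOR genes 7 were lower and 2 higher, with a median of -0.07 that was -0.16 without control replicate 6. Without control replicates 2 and 5 the median was -0.07 with 9 lower. Deptor, an mTOR inhibitor, was at 2.49 ± 0.294 and 2.05 ± 0.371 FPKM (log2 difference -0.20, unadjusted p = 0.0519, adjusted p = 0.738), while Rheb, the activator of mTOR complex 1, was at 58.5 ± 5.75 and 58.7 ± 2.52 FPKM. Of 11 paralogs and effectors of AKT and GSK3 9 were lower and 2 higher. The number lower was 8 without control replicate 6 and 7 without control replicates 2 and 5. Gys1, muscle glycogen synthase and a GSK3 substrate, ran from 24.1 FPKM in control replicate 6 to 48.1 FPKM in control replicate 4 and from 32.0 to 34.1 FPKM in PCOS, and its log2 difference of -0.18 (adjusted p = 0.777) became -0.31 without control replicate 6. Sgk1, a kinase related to AKT, differed by 0.16 (adjusted p = 0.893), by 0.26 without control replicate 6 and by 0.44 without control replicates 2 and 5.

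Among FoxO target genes 12 of 15 were lower, 3 higher and 0 called, where 49.4% of all tested rows were below 0. Their median was -0.14. Without control replicate 6 the median was -0.18 with 14 lower, and without control replicates 2 and 5 it was -0.04 with 10 lower. Cat was at 132 ± 8.65 and 118 ± 7.53 FPKM (log2 difference -0.16, unadjusted p = 0.0245, adjusted p = 0.738), and Sod2, mitochondrial superoxide dismutase, at 180 ± 8.15 and 186 ± 5.70 FPKM. Pdk4, the kinase that shuts off pyruvate oxidation, reached 115 and 160 FPKM in the pair of libraries highest in Irs2, control replicates 2 and 5, and was at 30.2 to 75.9 FPKM in the other 9; it is named after its values were seen. Txnip, an inhibitor of glucose uptake named likewise, was at 363 and 548 FPKM in those 2 libraries and at 145 to 310 FPKM in the others. Cat and Sod2, the targets named by the smallest p in each direction, did not share this. In those 2 libraries Cat was at 127 and 118 FPKM, where all 11 ran from 107 to 143 FPKM. Sod2 was at 188 and 186 FPKM, where all 11 ran from 165 to 195 FPKM. Foxo1 itself was at 5.66 and 5.54 FPKM there and reached 5.53 FPKM in control replicate 1.

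**Figure D5:**
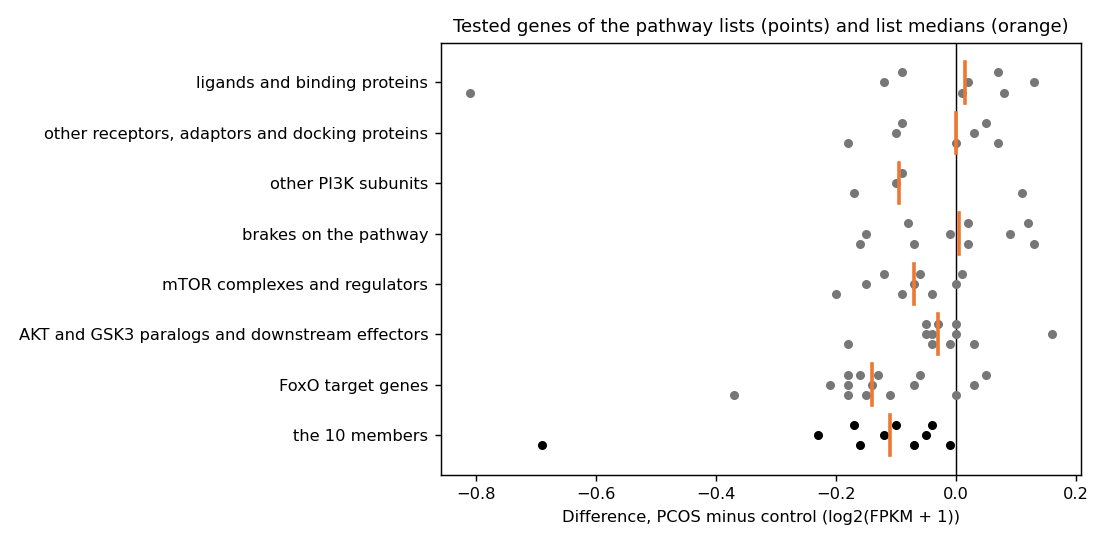
Difference of each tested gene, control subtracted from PCOS, in log2(FPKM + 1) units (horizontal axis), for 7 pathway lists (grey points) and the 10 members (black points), with the median of each (orange lines). Medians lay between -0.14 for FoxO targets and 0.01, and none of the points passed the test over all rows.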

How the data were processed

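Heart RNA of female mice was sequenced in 11 stranded TruSeq mRNA libraries (6 control, 5 PCOS), per the labels' protocols. The authors deposited 1 FPKM value per gene model and library; the submitters' processing notes name HISAT2 2.2.1, HTSeq 0.13.5, DESeq2 1.18.1 and build mm10, and the settings and the strand counted are not given in the sources used here. FPKM is relative within a library and depends on model length. Symbols came from RefSeq (GRCm38.p6), with 87.2% of rows matched; Akt2, Igf1r, Irs2 and Gsk3b matched an accession of another version.

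Differences are PCOS minus control by limma 3.58.1 (R 4.3.3, with a mean-variance trend), fitted to log2(FPKM + 1), a scale that shrinks changes of low genes. The 10891 rows averaging 1 FPKM or more were tested, and p-values were adjusted over all of them by the Benjamini-Hochberg method. Irs2 and 4 ratios of paralogs were compared by exact two-sided permutation tests over the libraries (scipy 1.17.1). Whole reads were recovered in all 15939 rows above 0 in at least 3 libraries (within 0.000151 of a whole number) and gave 11866291 to 14346620 reads per library. The fit and the recovery were tested on simulated data. Pairwise chi-square values of the reads were at least 5.17 per degree of freedom, so no 2 libraries agreed within sampling noise.

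The members, the pathway and marker lists, and the choice to leave out control libraries 2 and 5 were made with earlier results of these data known. Named genes were the members, per pathway list the gene with the smallest p in each direction, and the 8 genes most like Irs2; others were chosen after their values were seen. Some genes of the pathway lists, including one that this rule names, are not reported here by name. Alternatives were pseudocount, filter, scaling, sample weights, replicate block, left-out libraries and voom on recovered reads.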

Additional observations from a re-analysis of the deposited data

Results flagged for a closer look

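Of 28 sets of values (10 transcripts and 4 ratios in each group), 2 had a library far from the others by Dixon's criterion; chance gives about 5% of sets. Insr in control replicate 6 was 15.2 FPKM, against 19.6 FPKM in the nearest control. Irs1 in PCOS replicate 4 was 3.96 FPKM, against 3.42 FPKM in the nearest PCOS library.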

How the results depend on the processing

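Over all rows 15 genes were called. The count was 5 with the filter at a mean FPKM of 5, 25 with sample weights, 25 with the replicate block and 10 to 32 when each library was left out in turn, with 32 without control replicate 6; the filter tests fewer genes, and for the others the cause was not tested. No member was called in any of these. The difference of Igf1r ran from -0.07 to 0.03 with 1 library left out and was 0.01 without control libraries 2 and 5. That of Irs1 ran from -0.11 to 0.04, was 0.09 without control libraries 2 and 5 and 0.01 without control libraries 2, 5 and 6, a setting chosen after seeing the data. The other 8 members kept their direction in every alternative that tested them; the filter at 5 left 5 members. The replicate numbers gave correlations of -0.12 to 0.25 between like-numbered libraries, which show no clear pairing. A weak pairing could be missed with 5 such pairs, and the labels state none. The main fit was unpaired. With the replicate block, which drops control replicate 6, Irs2 differed by -0.92 (limma unadjusted p = 0.0286, adjusted p = 0.219). The exact sign-flip permutation test of the 5 pairs gave p = 0.25, and it could not fall under 0.0625. Irs2 rests on 38 reads in its lowest library, which limits its precision there.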
